A study of Mus musculus with 27 samples.

Results

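Intestinal adenomas that carry the Braf mutation and lack Fosl1 were compared with Braf adenomas that keep it. The knockout group held 6 adenomas of BrafV637E/+;Vil-CreERT2/+ mice with both Fosl1 alleles floxed, and the Braf group held 5 adenomas of BrafV637E/+;Vil-CreERT2/+ mice. Both groups carried the same Braf allele and the same Cre, and the mice were 6 weeks old when they received 5 mg of tamoxifen by gavage on 2 consecutive days. These 11 libraries are part of 18 in 1 deposited table and of 27 in the series. A further 6 libraries of that table came from normal intestinal epithelial tissue of mice of the Braf line given sunflower oil without tamoxifen, and they are quoted as ranges. The remaining 1 library was left out because its title names the knockout and its genotype and library name do not. Each adenoma is 1 mouse by its title, the age at collection is not given in the sources used here, and 2 library kits are named without saying which library was made with which.

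Braf is a kinase of the Ras to ERK cascade, and BrafV637E is the mouse counterpart of the hotspot mutation of human tumours, which keeps the cascade active. Fosl1 encodes FRA-1, a Fos family subunit of the AP-1 transcription factor, whose gene is induced and whose protein is stabilised by ERK signalling. Vil-CreERT2 is a tamoxifen-activated Cre driven by the villin promoter, so the alleles are recombined in intestinal epithelium, while stromal and immune cells of the adenoma keep Fosl1. The tissue carried its epithelial markers: Epcam, an adhesion protein of epithelium, stood at 827 to 2220 nCPM in knockout adenomas and at 1992 to 2485 nCPM in Braf adenomas, and Vil1, the villin gene, at 598 to 1244 nCPM in knockout adenomas and 533 to 1277 nCPM in Braf adenomas. An nCPM is a deposited normalised count multiplied by 0.158533, which puts the average library on the CPM scale. The row of Fosl1 is not analysed here, so the knockout could not be checked on its own transcript.

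The estimated depth was 4.03 to 6.53 M reads in knockout libraries and 5.58 to 7.10 M reads in Braf libraries. Mitochondrially encoded RNA took 5.24 to 28.5% of the normalised counts in knockout libraries and 3.51 to 8.61% in Braf libraries, the highest share being in knockout library 2, which was also the shallowest. RNA of Xist, the X-inactivation transcript of females, was present in 3 of 6 knockout and 1 of 5 Braf libraries. The Braf library with Xist RNA was library 8, so sex and that library cannot be told apart in the Braf group. Fits on the libraries without Xist RNA leave it out. Correlations between libraries over log2 values were 0.895 to 0.970 within the knockout group, 0.900 to 0.959 within the Braf group and 0.880 to 0.969 between the groups.

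Across the whole transcriptome, few single genes separated the groups beyond the spread between adenomas. Of 14237 genes tested with limma on log2(nCPM + 1), 2 passed an adjusted p of 0.05 (0.014%). Gstp2 was the 1 gene that rose (0.00702%) and the predicted gene Gm8116 the 1 gene that fell (0.00702%). Gm8116 passed the filter on low values only through the 5 Braf libraries where it is high, so its call is a description of that separation. The next smallest adjusted p was 0.0813. At an unadjusted p of 0.05, 158 genes were higher in knockout adenomas (1.11%) and 1313 were lower (9.22%). The counts were 536 higher and 827 lower when libraries were rescaled with TMM factors, and 550 higher and 818 lower with median-ratio factors, and the median log2 change of all genes was -0.15 in the deposited scaling, -0.0030 with TMM factors and 0.0023 with median-ratio factors. Changes are therefore read against -0.15. The groups did not overlap in any library for 15 genes that were higher (0.105%) and 163 that were lower (1.14%).

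Gstp2 encodes a pi-class glutathione S-transferase, an enzyme that couples glutathione to electrophiles, and lies beside its near-identical neighbour Gstp1. The first 60 coding bases are shown because reads can be told apart only at such differences: capitals mark the 6 bases at which the pair differs there. Over the whole coding sequence of 630 bases, 12 bases differ (98.1% identical). The sequences come from the GENCODE M21 transcripts of build GRCm38, from the minus strand of chromosome 19.
Gstp2: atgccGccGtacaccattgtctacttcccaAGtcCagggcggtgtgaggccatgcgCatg
Gstp1: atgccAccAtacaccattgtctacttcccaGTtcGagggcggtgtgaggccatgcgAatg

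Gstp2 (ENSMUSG00000038155, chr19:4040285-4046023, GRCm38) rose 2.54 on the log2 scale in knockout adenomas, with a standard error of 0.23 and an adjusted p of 0.000181 in limma. Its level was 31.6, 44.0 and 72.3 nCPM at the lowest, median and highest of the 6 knockout libraries, against 7.26, 8.19, 8.96, 6.52 and 5.03 nCPM in the 5 Braf libraries. The groups lay far apart, and the control tissue, at 8.27 to 15.6 nCPM, was nearer to the Braf adenomas. Gstp1 did not pass the test and lay on the other side of 0, with a log2 change of -0.87 and an adjusted p of 0.251 in limma. Its level was 98.6, 155 and 209 nCPM at the lowest, median and highest in knockout adenomas, against 289, 346, 328, 148 and 318 nCPM in Braf adenomas. Braf library 7 was the one Braf adenoma inside the knockout range. Gstp2 made up 17.9 to 25.7% of the summed Gstp1 and Gstp2 level in knockout adenomas, 1.56 to 4.22% in Braf adenomas and 4.18 to 7.22% in control tissue.

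The processed pseudogene Gstp-ps on chromosome 1 differs from the Gstp2 coding sequence at 5 of 628 aligned bases and from that of Gstp1 at 15. It stood at 0.344, 1.49 and 1.89 nCPM at the lowest, median and highest in knockout adenomas, against 4.85, 3.20, 3.79, 3.34 and 2.58 nCPM in Braf adenomas, and did not pass the test (log2 change -1.04, adjusted p = 0.217 in limma). The groups did not overlap for this pseudogene, and it ran opposite to Gstp2. The summed level of Gstp1, Gstp2 and Gstp-ps overlapped between knockout adenomas (132 to 283 nCPM) and Braf adenomas (158 to 358 nCPM). Gstp3, a more distant pi-class gene that is 74.4% identical to Gstp2, had a log2 change of 0.17. How reads that fit more than 1 of these genes were counted is not given in the sources used here, so the split of the sum among the near-identical genes is uncertain.

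The promoters of the pair are shown because the levels of these neighbours moved apart. The 250 bases before the start of each gene, from RefSeq on build GRCm38.p6, hold 1 match each to TGANTCA, the AP-1 motif (N is any base; the reverse complement is the same pattern), which is in capitals together with any CCAAT box (CCAAT or ATTGG) and any interferon-stimulated response element (GAAA, any 2 bases, GAAA, on either strand). Gstp2 spans chr19:4042222-4042471 and Gstp1 chr19:4037913-4038162, both on the minus strand. The RefSeq starts differ from the gene bounds given above, so the Gstp2 window lies inside the Gstp2 bounds and the Gstp1 window begins inside those of Gstp1.
Gstp2: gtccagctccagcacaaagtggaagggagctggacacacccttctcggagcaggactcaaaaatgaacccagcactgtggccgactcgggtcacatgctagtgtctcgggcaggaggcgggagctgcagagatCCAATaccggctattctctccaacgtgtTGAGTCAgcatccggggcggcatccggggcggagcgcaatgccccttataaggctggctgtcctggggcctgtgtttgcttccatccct
Gstp1: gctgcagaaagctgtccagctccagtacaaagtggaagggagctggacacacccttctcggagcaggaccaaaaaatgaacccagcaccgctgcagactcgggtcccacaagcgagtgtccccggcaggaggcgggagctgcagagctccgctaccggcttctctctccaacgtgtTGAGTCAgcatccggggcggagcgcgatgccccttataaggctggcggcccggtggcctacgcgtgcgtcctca
The AP-1 match begins 89 bases before the Gstp2 start and 74 bases before the Gstp1 start. Of 32851 promoter windows of the same length, 6.75% hold that motif, 33.8% a CCAAT box and 2.98% a response element. A match is a description of the letters and not of binding.

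Gm8116 (ENSMUSG00000059422, chr9:78820638-78821838) is annotated as a processed pseudogene and was the 1 gene that fell, by 1.90 on the log2 scale (standard error 0.23, adjusted p = 0.00392 in limma). Its level was 0, 0.247 and 0.873 nCPM at the lowest, median and highest in knockout adenomas, against 3.40, 3.58, 3.83, 3.66 and 4.56 nCPM in Braf adenomas. Control tissue lay between, at 0.587 to 2.82 nCPM. The gene reached 1 nCPM in the 5 Braf libraries alone and so passed the filter on low values through the group where it is high. Without any 1 Braf library it missed that filter and was not tested, and among the libraries without Xist RNA the log2 change of Gm8116 had an adjusted p of 0.633 in limma. Of its 1171 words of 31 bases, 94.7% are also found in transcripts of Carnmt1, a histidine methyltransferase gene on chromosome 19, so reads may be shared. Carnmt1 itself was at 8.70, 13.2 and 16.5 nCPM at the lowest, median and highest in knockout adenomas, against 13.6, 18.4, 9.67, 10.97 and 22.4 nCPM in Braf adenomas, and the groups overlapped (log2 change -0.16, adjusted p = 0.820 in limma).

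**Figure D1:**
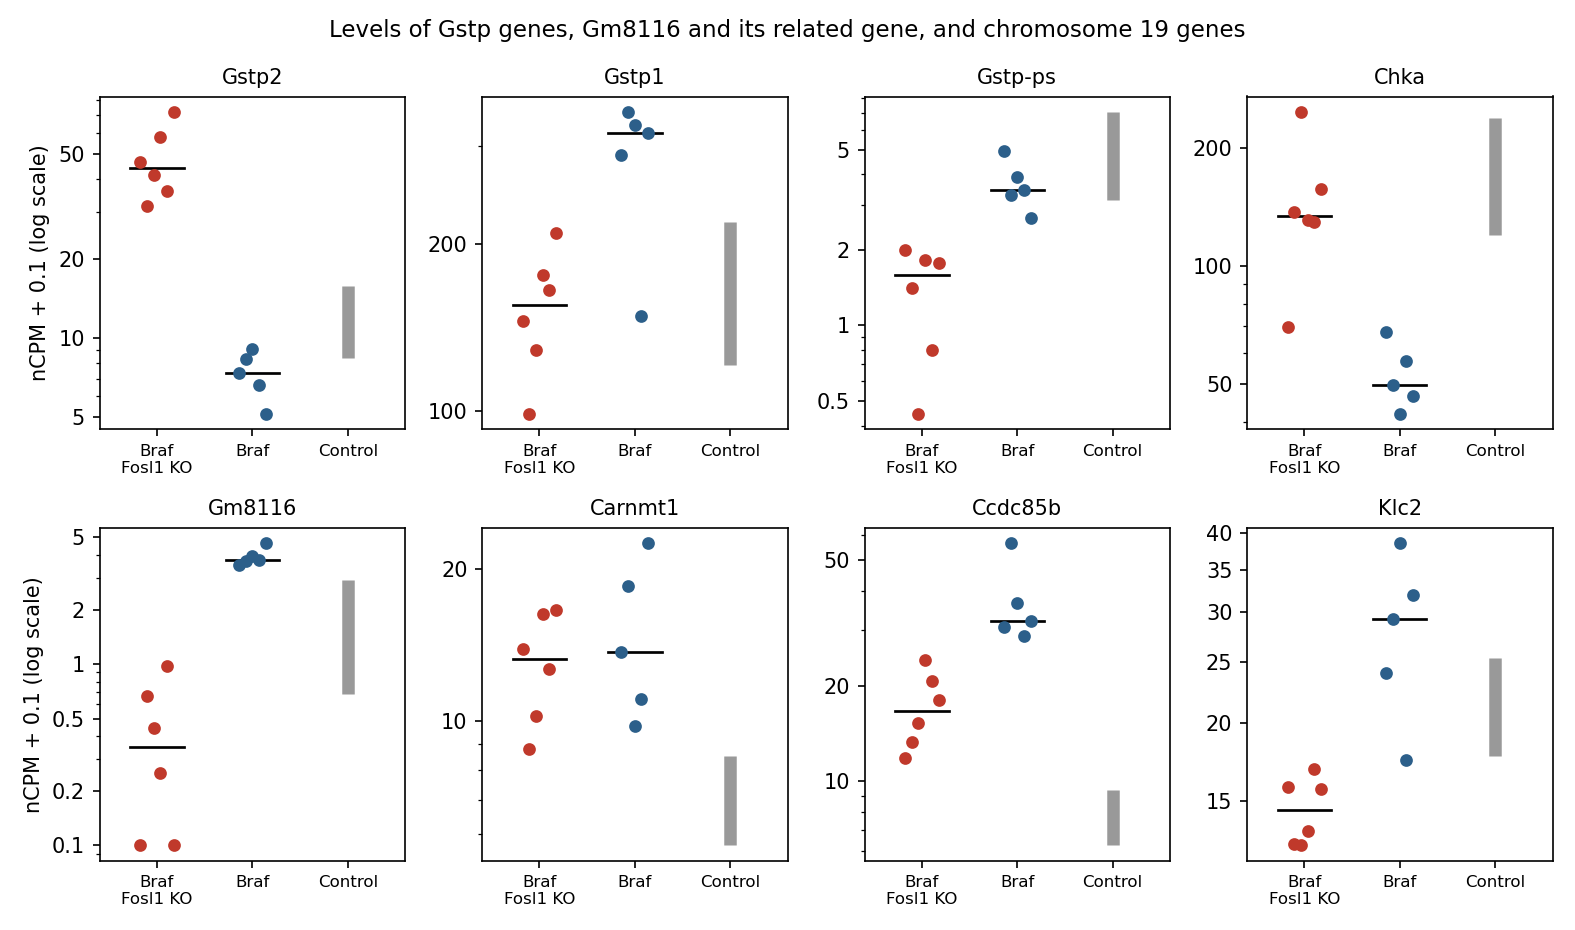
Level of 8 genes in each library, in nCPM plus 0.1 on a log axis, with red points for the 6 knockout adenomas, blue points for the 5 Braf adenomas, a line at each median and a grey bar for the range of control tissue. Gstp2 and Chka are higher in knockout adenomas without overlap, Gstp-ps, Gm8116, Ccdc85b and Klc2 are lower without overlap, and Gstp1 and Carnmt1 overlap.

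Some of the genes whose groups did not overlap lie on chromosome 19 near Fosl1, which starts at chr19:5447547 on the plus strand. Chka, which encodes choline kinase alpha, the first enzyme of phosphatidylcholine synthesis, lies 1.60 Mb before Fosl1 and Gstp2 lies 1.40 Mb before it. Chka stood at 69.7, 134 and 248 nCPM at the lowest, median and highest in knockout adenomas, against 67.8, 49.4, 41.7, 56.9 and 46.5 nCPM in Braf adenomas. The groups did not overlap, but the lowest knockout library was close to the highest Braf library, and the test was not passed (log2 change 1.38, adjusted p = 0.0989 in limma). Control tissue held 120 to 238 nCPM of Chka, within the knockout range.

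Ccdc85b, which encodes a coiled-coil protein, overlaps the 3′ part of Fosl1 by 2767 bases on the other strand. It was at 11.7, 16.6 and 24.0 nCPM at the lowest, median and highest in knockout adenomas, against 30.5, 56.6, 36.4, 28.8 and 31.9 nCPM in Braf adenomas, and at 6.17 to 9.30 nCPM in control tissue. The adenoma groups did not overlap and the test was not passed (log2 change -1.06, adjusted p = 0.156 in limma). Whether the counting used strand is not given in the sources used here, so reads of Fosl1 and Ccdc85b cannot be told apart. Klc2, a kinesin light chain gene (log2 change -0.88), and Zdhhc24, a palmitoyltransferase family gene (-0.91), also lay lower without overlap, and Mus81, a structure-specific endonuclease gene (-0.84), lay lower with overlap; none passed the test.

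Within 2 Mb of the Fosl1 start, 145 genes were tested, of which 6 were higher (4.14%) and 17 lower (11.7%) at an unadjusted p of 0.05. On the rest of chromosome 19 beyond 5 Mb, 10 of 305 were higher (3.28%) and 33 lower (10.8%). Over all genes tested these shares were 1.11% and 9.22%. Within 1 Mb, 2 of 83 were higher (2.41%) and 8 lower (9.64%), and within 5 Mb, 6 of 194 were higher (3.09%) and 28 lower (14.4%). Non-overlapping genes within 2 Mb numbered 2 higher and 3 lower, against 0.105% and 1.14% of all genes tested. These shares are descriptions, since neighbouring genes are not independent.

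**Figure D2:**
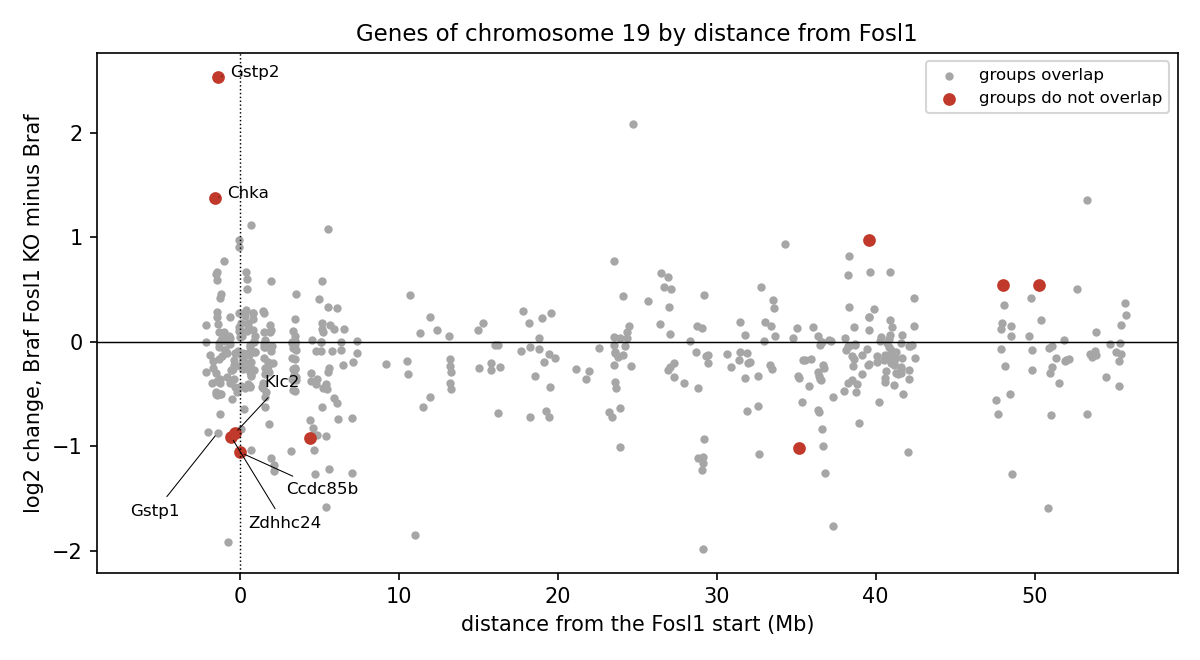
Log2 change in knockout minus Braf adenomas for each tested gene of chromosome 19, by distance of its start from the Fosl1 start in Mb, with red points for genes whose groups do not overlap. Gstp2 at 2.54 and Chka at 1.38 stand above the other genes near Fosl1, and Zdhhc24, Klc2 and Ccdc85b lie near -0.9 to -1.06.

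Of the 10 genes with the next smallest p, none passed the adjusted threshold and 8 were lower in knockout adenomas; the 2 higher ones were Chka and 2900022M07Rik, a RIKEN cDNA gene with a log2 change of 1.95. Angptl2, which encodes a secreted angiopoietin-like protein, was at 1.51, 2.63 and 5.42 nCPM at the lowest, median and highest in knockout adenomas, against 6.79, 18.6, 13.4, 14.3 and 13.9 nCPM in Braf adenomas (log2 change -1.88, adjusted p = 0.0813 in limma). Sting1, the adaptor that relays cytosolic DNA sensing to interferon induction, was at 2.68, 5.27 and 8.04 nCPM in knockout adenomas, against 10.3, 26.1, 15.8, 23.2 and 26.2 nCPM in Braf adenomas (log2 change -1.82, adjusted p = 0.0903 in limma). Neither gene overlapped between the groups. Slc28a3, a nucleoside transporter gene, had a log2 change of -1.85, Trp53i11, named as a p53-inducible gene, -1.80, and Prdx4, a peroxiredoxin of the endoplasmic reticulum, -1.43, each without overlap. Zbed3, a zinc finger gene linked to axin, had -2.02, with the highest knockout library at 5.66 nCPM and the lowest Braf library at 6.299 nCPM. When the 6 control libraries were added to the fit, 7 genes passed as higher and 55 as lower, among them Chka, Angptl2, Sting1, Slc28a3, Zbed3, Trp53i11 and Prdx4. The log2 changes between the adenoma groups stay the same in that fit, while control tissue lends its own spread to the test. The added calls are thus not further evidence of a change. Cd74 and H2-Aa, also among the 10, did not pass in that fit and had a larger adjusted p there, of 0.268 for Cd74 and 0.358 for H2-Aa in limma.

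MHC class II genes, which encode the surface complex that presents peptides to helper T cells, lay lower in knockout adenomas. The complex is made by macrophages, dendritic cells and B cells, and by intestinal epithelium exposed to interferon gamma. Of the 9 members tested, none passed the adjusted threshold and 8 were lower at an unadjusted p of 0.05 against 9.22% of all genes. Lower without overlap were 3 of the 9, against 1.14% of all genes, and the median log2 change was -1.38. Their summed level was 87.1, 184 and 255 nCPM at the lowest, median and highest in knockout adenomas, against 588, 317, 628, 401 and 547 nCPM in Braf adenomas. The sums did not overlap between the adenoma groups, while control tissue spanned 160 to 1895 nCPM. Among the libraries without Xist RNA alone, 3 knockout against 4 Braf, 4 of 9 were lower at that p with a median of -0.89, against 4.24% of all genes.

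H2-Aa, the alpha chain of the I-A molecule, stood at 13.0, 31.8 and 47.0 nCPM at the lowest, median and highest in knockout adenomas, against 80.1, 57.6, 94.1, 80.7 and 78.0 nCPM in Braf adenomas (log2 change -1.38, adjusted p = 0.101 in limma). Cd74, the invariant chain that guides class II molecules through the cell, stood at 22.2, 46.8 and 77.7 nCPM in knockout adenomas, against 183, 90.8, 176, 112 and 229 nCPM in Braf adenomas (log2 change -1.72, adjusted p = 0.0932 in limma). H2-Ab1, the partner chain of H2-Aa, had a log2 change of -1.51 and did not overlap either. With the control libraries in the fit, no class II gene named here passed, at adjusted p of 0.258 to 0.358 in limma. Ciita, the master transactivator of class II genes, had 1.25, 2.76 and 4.96 nCPM in knockout adenomas, against 8.40, 4.99, 4.76, 5.72 and 13.3 nCPM in Braf adenomas, so the groups touched. H2-DMb1, a peptide-loading subunit, had a log2 change of -1.55. H2-Eb1, a chain of the I-E molecule, split the libraries within both groups: knockout library 3 held 26.8 nCPM and the other 5 knockout libraries 0.934 to 3.33, and the Braf libraries held 80.5, 32.8, 107, 2.38 and 6.33 nCPM.

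Interferon response genes, which cells switch on when interferon binds its receptor, also had medians below 0. Of 28 tested, 17 were lower at an unadjusted p of 0.05 against 9.22% of all genes, and none passed the adjusted threshold. Lower without overlap were 3 of the 28, against 1.14% of all genes, and the median log2 change was -0.94. Their summed level overlapped, at 485 to 1019 nCPM in knockout adenomas and 667 to 2214 nCPM in Braf adenomas. Without Braf library 8, 11 of 28 were lower at that p against 6.39% of all genes, and with TMM factors 10 of 28, against 5.80% of all genes under those factors. Among the libraries without Xist RNA alone, 7 of 28 were lower with a median of -0.29, against 4.24% of all genes. Gbp2, an interferon-induced GTPase, was at 1.25, 2.77 and 4.04 nCPM at the lowest, median and highest in knockout adenomas, against 13.1, 6.41, 24.0, 11.1 and 92.4 nCPM in Braf adenomas (log2 change -2.45, adjusted p = 0.182 in limma). The groups did not overlap, and Braf library 8 was far above the other Braf libraries. Zbp1, a nucleic acid sensor, was at 2.21, 4.57 and 10.5 nCPM in knockout adenomas, against 32.0, 7.84, 29.5, 15.9 and 92.1 nCPM in Braf adenomas, and here the groups overlapped (log2 change -2.34, adjusted p = 0.203 in limma). Irgm1 (-1.62) and Gbp7 (-1.24), interferon-induced GTPases as well, did not overlap.

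Genes of MHC class I presentation, which load cytosolic peptides for killer T cells, included 12 of 20 lower at an unadjusted p of 0.05 against 9.22% of all genes, with a median log2 change of -0.86 and no gene past the adjusted threshold, and 1 of 20 among the libraries without Xist RNA alone, near the 4.24% of all genes there. Their summed level overlapped, at 1569.6 to 3995 nCPM in knockout adenomas and 2084 to 4915 nCPM in Braf adenomas. Psmb8 and Psmb10 are catalytic subunits of the immunoproteasome. Psmb8 stood at 2.52, 3.94 and 13.6 nCPM at the lowest, median and highest in knockout adenomas, against 32.5, 6.76, 25.4, 9.38 and 50.1 nCPM in Braf adenomas (log2 change -1.73), with overlap. Psmb10 had a log2 change of -1.01. Erap1, the peptidase that trims class I peptides, had -0.99 and did not overlap, and the class I gene H2-Q7 had -1.71 with overlap.

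Host-defence genes were read from a pair of lists. Which cells of these bulk adenomas made their RNA was not tested. The acute phase and lipocalin list had 10 of 14 tested members lower at an unadjusted p of 0.05 against 9.22% of all genes. Lower without overlap were 2 of the 14, against 1.14% of all genes. The median log2 change was -1.38, and none passed the adjusted threshold. Their summed level overlapped, at 303 to 2169 nCPM in knockout adenomas and 1198 to 3409 nCPM in Braf adenomas. Lcn2, the lipocalin that withholds iron from bacteria, was at 0.291, 1.34 and 3.65 nCPM at the lowest, median and highest in knockout adenomas, against 5.18, 8.25, 7.39, 18.6 and 6.16 nCPM in Braf adenomas (log2 change -1.96, adjusted p = 0.136 in limma). Ltf, the iron-binding lactoferrin, was at 0.338, 1.31 and 2.66 nCPM in knockout adenomas, against 4.51, 8.73, 23.5, 9.85 and 101 nCPM in Braf adenomas (log2 change -2.95, adjusted p = 0.193 in limma). Both genes were lower in all 6 knockout libraries than in any Braf library. Lrg1, a leucine-rich acute phase glycoprotein, had a log2 change of -2.08, and Wfdc18, a whey acidic protein family member, -1.57, each with overlap.

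The NADPH oxidases and nitric oxide synthase, which make superoxide, hydrogen peroxide and nitric oxide at the mucosal surface, had 7 of 13 tested members lower at an unadjusted p of 0.05, against 9.22% of all genes, and a median log2 change of -0.84, with none past the adjusted threshold. Their summed level was 167, 269 and 297 nCPM at the lowest, median and highest in knockout adenomas, against 749, 540, 946, 349 and 1317 nCPM in Braf adenomas, without overlap. Duox2, the dual oxidase of gut epithelium, made up much of that sum, at 85.0, 98.9 and 133 nCPM in knockout adenomas, against 379, 221, 501, 100.0 and 733 nCPM in Braf adenomas. Braf library 7 lay inside the knockout range for Duox2, and the other 4 Braf libraries lay above it (log2 change -1.61, adjusted p = 0.217 in limma). Duoxa2, which matures Duox2, had a log2 change of -1.88, and Nox1, the colon-type oxidase, -2.41. Nos2, the inducible nitric oxide synthase, was at 0.151, 0.383 and 6.86 nCPM in knockout adenomas, against 33.0, 4.09, 26.5, 4.29 and 78.8 nCPM in Braf adenomas (log2 change -3.35, adjusted p = 0.217 in limma), and knockout library 7 was the one knockout adenoma above 1 nCPM.

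**Figure D3:**
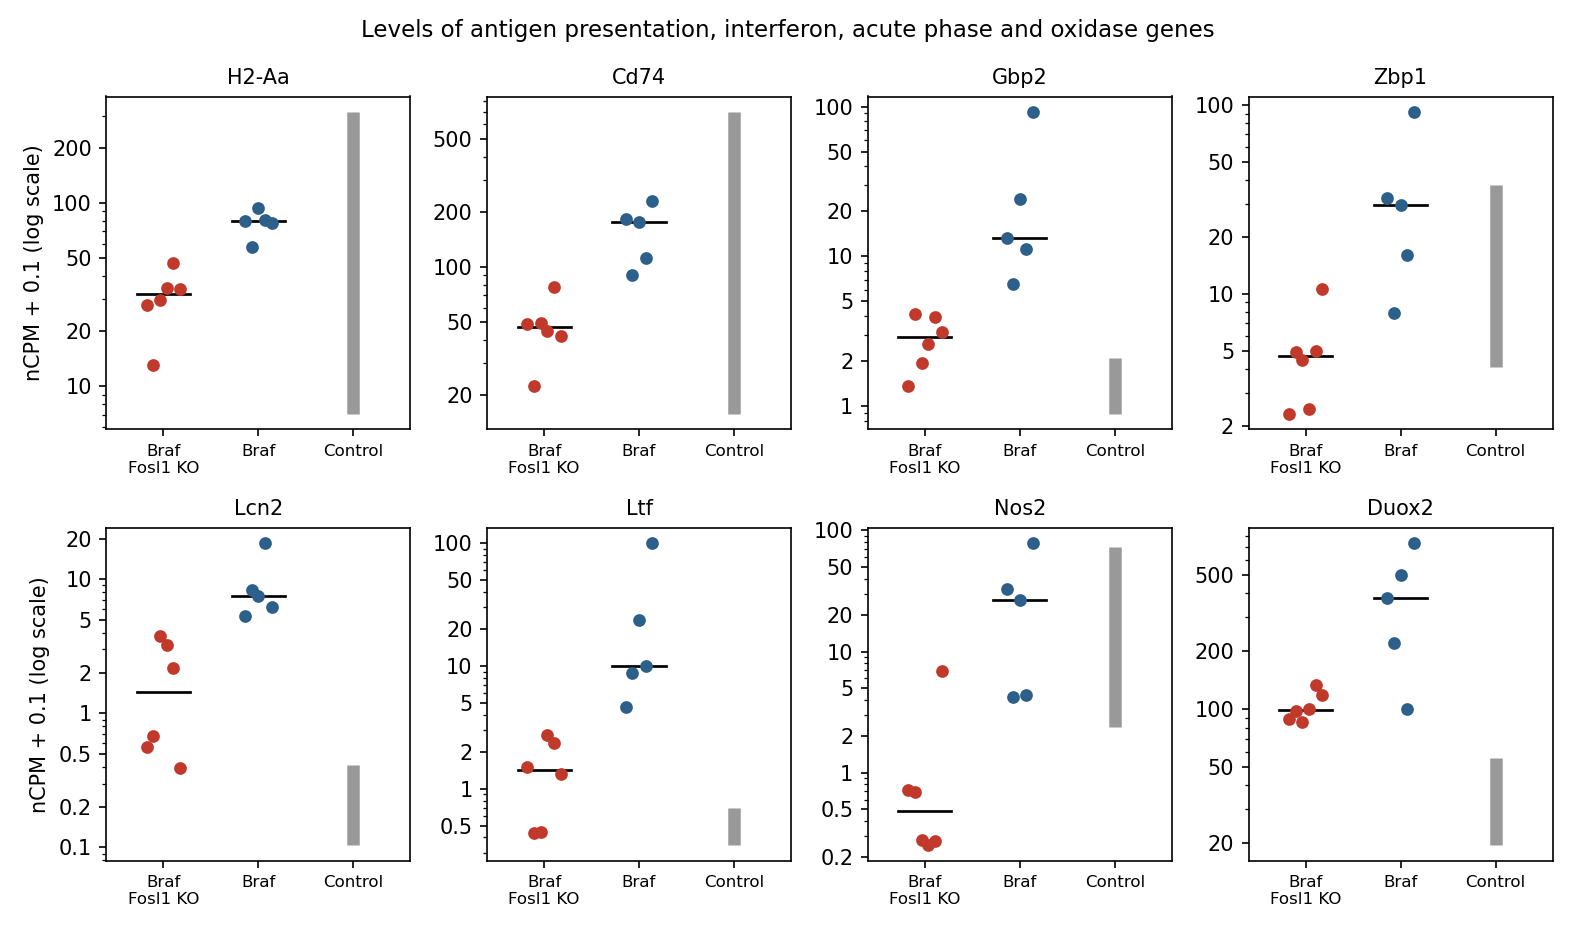
Level of 8 genes in each library, in nCPM plus 0.1 on a log axis, with red points for knockout adenomas, blue points for Braf adenomas, a line at each median and a grey bar for the range of control tissue. H2-Aa, Cd74, Gbp2, Lcn2 and Ltf do not overlap between the adenoma groups, and Zbp1, Nos2 and Duox2 do.

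The promoters of 4 of these genes are shown so that their motifs can be read beside their levels, with AP-1 motifs, CCAAT boxes and response elements in capitals as above. They are the 250 bases before the start in RefSeq (GRCm38.p6): H2-Aa at chr17:34287824-34288073 on the minus strand, Gbp2 at chr3:142620413-142620662 on the plus strand, Duoxa2 at chr2:122298650-122298899 on the plus strand and Lcn2 at chr2:32387740-32387989 on the minus strand. In the gene annotation, the Lcn2 window lies inside the gene and the Gbp2 window ends inside it.
H2-Aa: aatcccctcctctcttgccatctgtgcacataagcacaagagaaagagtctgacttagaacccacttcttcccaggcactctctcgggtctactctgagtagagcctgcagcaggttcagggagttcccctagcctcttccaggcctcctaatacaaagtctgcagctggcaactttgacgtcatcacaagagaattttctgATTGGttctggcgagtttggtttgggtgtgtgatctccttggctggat
Gbp2: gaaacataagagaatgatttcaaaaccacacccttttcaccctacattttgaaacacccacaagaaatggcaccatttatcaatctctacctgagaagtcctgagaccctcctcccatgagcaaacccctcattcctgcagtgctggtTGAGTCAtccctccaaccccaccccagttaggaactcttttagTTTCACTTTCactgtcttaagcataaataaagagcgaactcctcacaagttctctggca
Duoxa2: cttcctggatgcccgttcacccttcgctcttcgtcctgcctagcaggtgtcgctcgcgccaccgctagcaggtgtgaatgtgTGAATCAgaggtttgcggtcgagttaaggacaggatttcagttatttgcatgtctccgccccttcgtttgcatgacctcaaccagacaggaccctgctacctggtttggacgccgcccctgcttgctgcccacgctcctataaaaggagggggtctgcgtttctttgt
Lcn2: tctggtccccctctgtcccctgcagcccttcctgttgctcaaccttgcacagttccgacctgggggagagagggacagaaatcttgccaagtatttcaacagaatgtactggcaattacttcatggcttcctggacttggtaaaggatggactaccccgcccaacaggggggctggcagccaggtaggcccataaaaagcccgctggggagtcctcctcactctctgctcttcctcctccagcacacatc
The H2-Aa window holds a CCAAT box, the Gbp2 window an AP-1 motif and a response element, the Duoxa2 window an AP-1 motif and the Lcn2 window none of the 3 motifs. Among the interferon response genes with a promoter in the table, 13 of 20 hold the response element and 5 of 20 the AP-1 motif. Among the MHC class II genes these counts were 1 of 6 for each motif, and 4 of 6 held a CCAAT box. Of the MHC class I presentation genes, 0 of 17 held the AP-1 motif and 2 of 17 the response element. The AP-1 motif was in 2 of 9 oxidase and synthase genes and 1 of 14 acute phase and lipocalin genes. The response element was in 1 of 9 and 1 of 14 of these. Of all promoter windows, 6.75% held the AP-1 motif, 2.98% the response element and 33.8% a CCAAT box.

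Markers of some immune cells lay lower beside the genes above. Of 12 macrophage markers tested, 9 were lower at an unadjusted p of 0.05 against 9.22% of all genes, with a median log2 change of -0.88 and none past the adjusted threshold, and 4 of 12 were lower at that p without Braf library 6 (6.50% of all genes) or without knockout libraries 2 and 3 (5.03% of all genes). Their summed level was 42.1, 127 and 157 nCPM at the lowest, median and highest in knockout adenomas, against 192, 227, 319, 185 and 240 nCPM in Braf adenomas, without overlap, and 14.8 to 32.8 nCPM in control tissue. Csf1r, the receptor of macrophage growth factor, had a log2 change of -0.90, C1qa and C1qc, subunits of complement C1q, -0.86 and -1.004, and Mpeg1, a pore-forming protein of macrophages, -1.26. Fewer macrophages and less RNA per macrophage cannot be told apart in these bulk samples, and the part of macrophages in the MHC class II and interferon values was not tested.

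Of 3 neutrophil markers tested, 2 were lower at an unadjusted p of 0.05, against 9.22% of all genes. Among them was Csf3r, the granulocyte growth factor receptor, with a log2 change of -1.18 and no overlap. The remaining marker lay on the other side, with a log2 change of 0.34, and only 3 of 10 listed markers were in the data. The summed level of the 3 markers overlapped widely, at 5.68 to 59.1 nCPM in knockout adenomas and 11.6 to 29.4 nCPM in Braf adenomas. Mcpt1, a protease of mucosal mast cells, was at 11.3, 37.3 and 61.8 nCPM at the lowest, median and highest in knockout adenomas, against 72.7, 245, 90.8, 63.7 and 244 nCPM in Braf adenomas, without overlap (log2 change -1.97, adjusted p = 0.271 in limma). Of 5 mast cell markers tested, 3 were lower at an unadjusted p of 0.05, against 9.22% of all genes. Their summed level overlapped, at 50.2 to 473 nCPM in knockout adenomas and 221 to 689 nCPM in Braf adenomas. Of 10 T cell markers tested, 2 were lower at that p, and of 6 B and plasma cell markers none was, against the same 9.22%. Such small counts do not set these markers apart from all genes. Summed T cell markers overlapped, at 10.2 to 75.2 nCPM in knockout adenomas and 17.3 to 62.9 nCPM in Braf adenomas. Endothelial, fibroblast and smooth muscle markers had medians of -0.59, -0.46 and -0.97. No member was at an unadjusted p of 0.05 out of 12, 12 and 11 tested, against 9.22% of all genes lower and 1.11% higher.

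**Figure D4:**
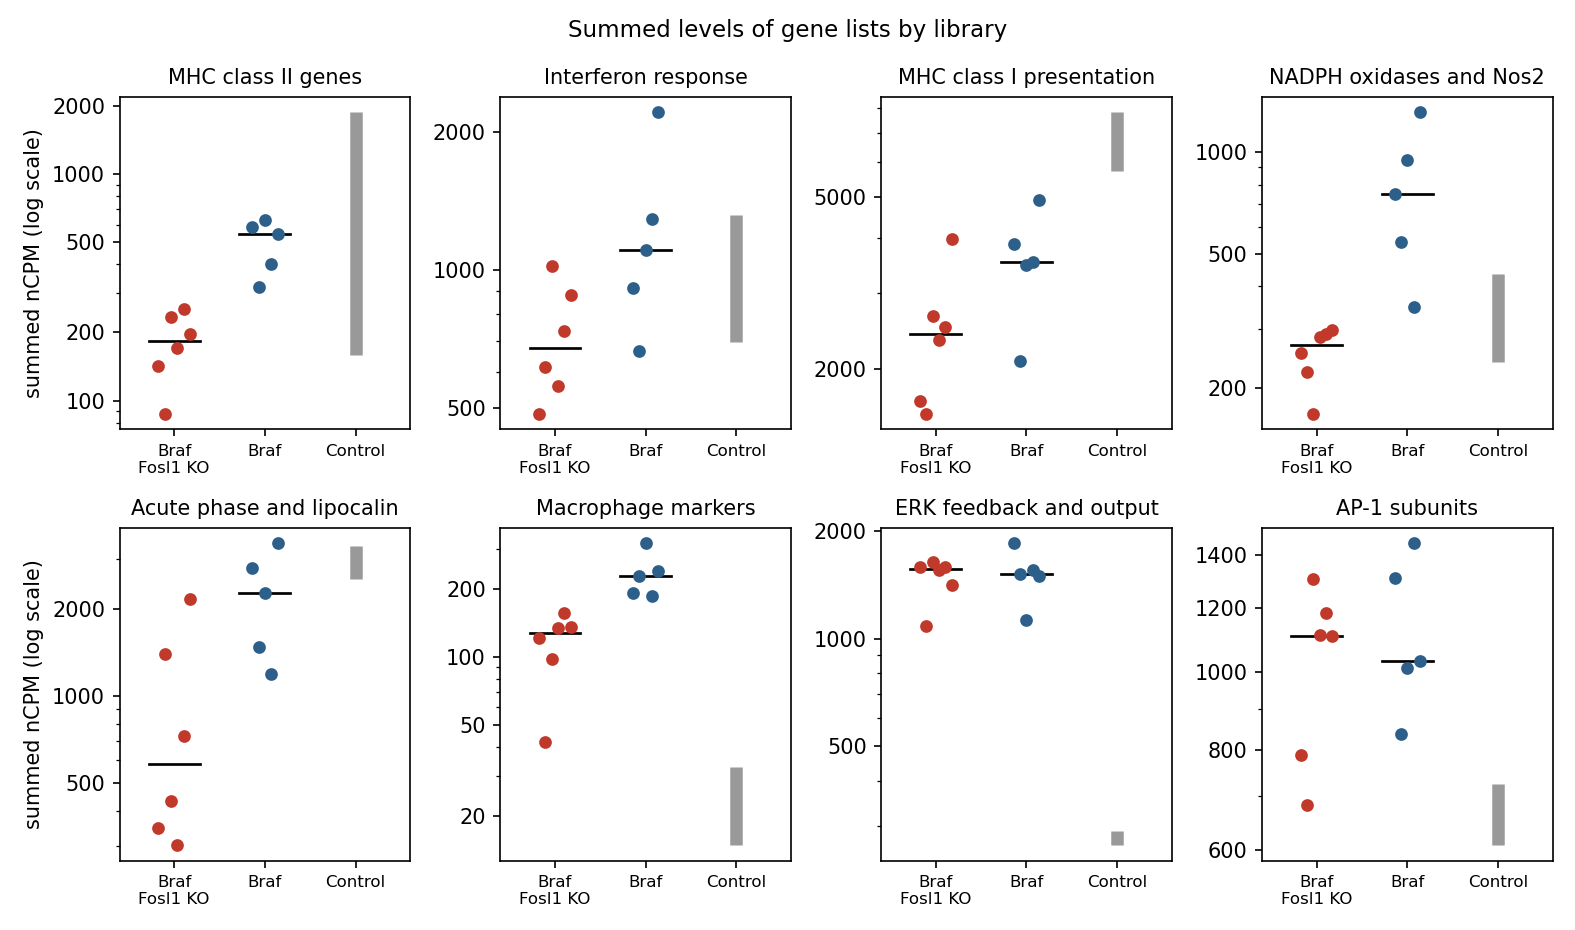
Summed nCPM of 8 gene lists in each library, on a log axis, with red points for knockout adenomas, blue points for Braf adenomas, a line at each median and a grey bar for the range of control tissue. The sums of MHC class II genes, of NADPH oxidases with Nos2 and of macrophage markers do not overlap between the adenoma groups, and those of ERK output and AP-1 subunits do.

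Genes of tissue remodelling and inflammation showed the same direction in part. Of 19 matrix metalloproteinase, Timp and Adam genes tested, 5 were lower at an unadjusted p of 0.05 against 9.22% of all genes (3 without knockout library 2, against 6.32%, or without Braf library 5, against 7.19%), with a median log2 change of -0.53. Adam8, a membrane metalloproteinase of leukocytes and tumour cells, was at 3.28, 4.15 and 7.94 nCPM at the lowest, median and highest in knockout adenomas, against 11.8, 12.1, 12.5, 12.6 and 19.4 nCPM in Braf adenomas, without overlap (log2 change -1.31, adjusted p = 0.121 in limma). Timp2, a metalloproteinase inhibitor, had a log2 change of -1.24 without overlap, and Mmp9, a gelatinase, -1.17 with overlap. Of 11 interleukin-1 family genes, 4 were lower at that p, against the same 9.22%, with a median of -0.64, among them the cytokines Il1b (-1.36), Il1f6 (-1.49) and Il1a (-0.87). Cldn2, the pore-forming claudin of crypts, was at 99.4, 133 and 217 nCPM in knockout adenomas, against 226, 506, 292, 328 and 773 nCPM in Braf adenomas, without overlap (log2 change -1.44, adjusted p = 0.151 in limma).

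The other AP-1 subunits and the genes of ERK output overlapped between the groups. Of 12 AP-1 subunits tested, 2 were lower at an unadjusted p of 0.05 against 9.22% of all genes, and none passed the adjusted threshold, with a median log2 change of -0.21 (-0.01 with TMM factors). The count was 1 of 11 without knockout library 7 or without Braf library 4, 5, 6 or 8. The 2 members were Batf2, an interferon-induced Batf factor, with a log2 change of -1.03, and Jdp2, a repressor that pairs with Jun proteins, with -0.85. Fosl2, the closest relative of Fosl1, was at 115, 190 and 279 nCPM at the lowest, median and highest in knockout adenomas, against 169, 162, 151, 205 and 195 nCPM in Braf adenomas (log2 change 0.02, 95% interval -0.44 to 0.49). Fos (-0.28) and Junb (-0.09) overlapped too, with a 95% interval of -1.24 to 0.67 for Fos and -0.55 to 0.37 for Junb, and the signs of Fosl2, Fos and Junb each turn under other settings, among them TMM factors for Junb. Jund, which is expressed without stimulation, was at 92.2, 104 and 109 nCPM in knockout adenomas, against 91.6, 93.1, 90.7, 71.2 and 72.4 nCPM in Braf adenomas (log2 change 0.30, adjusted p = 0.508 in limma).

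Of 20 ERK feedback and output genes, 2 were lower at an unadjusted p of 0.05, a share near the 9.22% of all genes, and the median log2 change was -0.20 (-0.04 with TMM factors, where none of the 20 was lower at that p). Their summed level was 1088, 1572 and 1635 nCPM at the lowest, median and highest in knockout adenomas, against 1854, 1522, 1130, 1555 and 1498 nCPM in Braf adenomas and 265 to 290 nCPM in control tissue. Both adenoma groups lay several-fold above control tissue. Dusp6, the ERK phosphatase induced by ERK, had a log2 change of 0.22 with a 95% interval of -0.33 to 0.77. Egr1, an immediate early factor, and Etv5, an ETS factor, were the 2 lower genes, with log2 changes of -0.88 and -0.86, and the count over the 20 was 0 to 3 as single libraries were left out, lowest without knockout library 5. Dusp4, another ERK phosphatase, had -0.81, and Phlda1, an ERK-induced gene, 0.45. Braf itself was at 15.6, 20.1 and 25.5 nCPM in knockout adenomas, against 19.7, 21.9, 19.7, 20.2 and 33.5 nCPM in Braf adenomas (log2 change -0.16, 95% interval -0.57 to 0.26), a sign that turns with TMM factors.

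Markers of fetal-like, stem cell and gastric states were mixed. Of 20 fetal and revival markers tested, 4 were lower and 1 higher at an unadjusted p of 0.05, against 9.22% and 1.11% of all genes, and the median log2 change was -0.14 (0.03 with TMM factors); 2 were lower without knockout library 2 or 7 or Braf library 5 or 6. Clu, the clusterin gene that marks regenerating epithelium, was at 929, 2113 and 4966 nCPM at the lowest, median and highest in knockout adenomas, against 2369, 6083, 4982, 2320 and 8982 nCPM in Braf adenomas, and at 5.17 to 8.02 nCPM in control tissue (log2 change -1.03, adjusted p = 0.444 in limma). Both adenoma groups were thus far above control tissue. Msln, mesothelin, was the member on the other side, at 120, 213 and 430 nCPM in knockout adenomas, against 89.3, 248, 86.4, 102 and 140 nCPM in Braf adenomas (log2 change 0.82, adjusted p = 0.435 in limma). Spp1, osteopontin, had a log2 change of -2.88 and Basp1, a membrane-associated signalling protein, -1.07.

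Of 17 crypt stem cell markers, 5 were lower at an unadjusted p of 0.05 against 9.22% of all genes (3 without Braf library 5, against 7.19%), among them Smoc2 (-1.65), a matricellular protein, Lrig1 (-0.94), a brake on EGF receptors, Rgmb (-0.54), a BMP co-receptor, and Mex3a (-1.11), an RNA-binding protein. Of 18 gastric markers, 3 were lower at that p (1 without Braf library 5 or without Braf library 6), not far from the share of all genes. Gkn3, a gastrokine of gastric neck cells, was at 38.0, 182 and 875 nCPM at the lowest, median and highest in knockout adenomas, against 205, 1146, 1802, 733 and 1642 nCPM in Braf adenomas (log2 change -2.26, adjusted p = 0.382 in limma). Tff2, a trefoil peptide, had -2.07, Muc6, the gland mucin of stomach and Brunner glands, -2.61, and Ctse, a gastric aspartic protease, -0.60. Of 6 Brunner gland markers tested, Muc6 among them, 3 were lower at an unadjusted p of 0.05 against 9.22% of all genes, with a median of -1.31. Their summed level overlapped, at 304 to 2140 nCPM in knockout adenomas and 1014 to 11591 nCPM in Braf adenomas. The part of Brunner glands in the gastric values was not tested. Of 26 cell cycle and replication genes, 4 were lower at that p, a share not far from that of all genes, with a median of -0.47. That count was 11 without knockout library 7, 8 without Braf library 7, 2 without knockout library 2 or Braf library 5, and 1 without knockout library 3 or Braf library 8.

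Genes of the mature absorptive cell ranged widely among mice of both groups. The fat absorption and lipoprotein list had a median log2 change of 0.83 with none of 17 genes at an unadjusted p of 0.05. The brush border hydrolases had 0.67 with 1 of 17 higher and 1 lower, against 1.11% and 9.22% of all genes. Fabp2, the intestinal fatty acid binding protein, was at 116, 1644 and 3124 nCPM at the lowest, median and highest in knockout adenomas, against 759, 190, 430, 3915 and 37.2 nCPM in Braf adenomas, and at 7266 to 11331 nCPM in control tissue. The 13 mitochondrially encoded genes had a median of 0.79, and knockout library 2 held the largest share of that RNA. The general epithelial markers had a median of 0.00 over 13 genes.

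**Figure D5:**
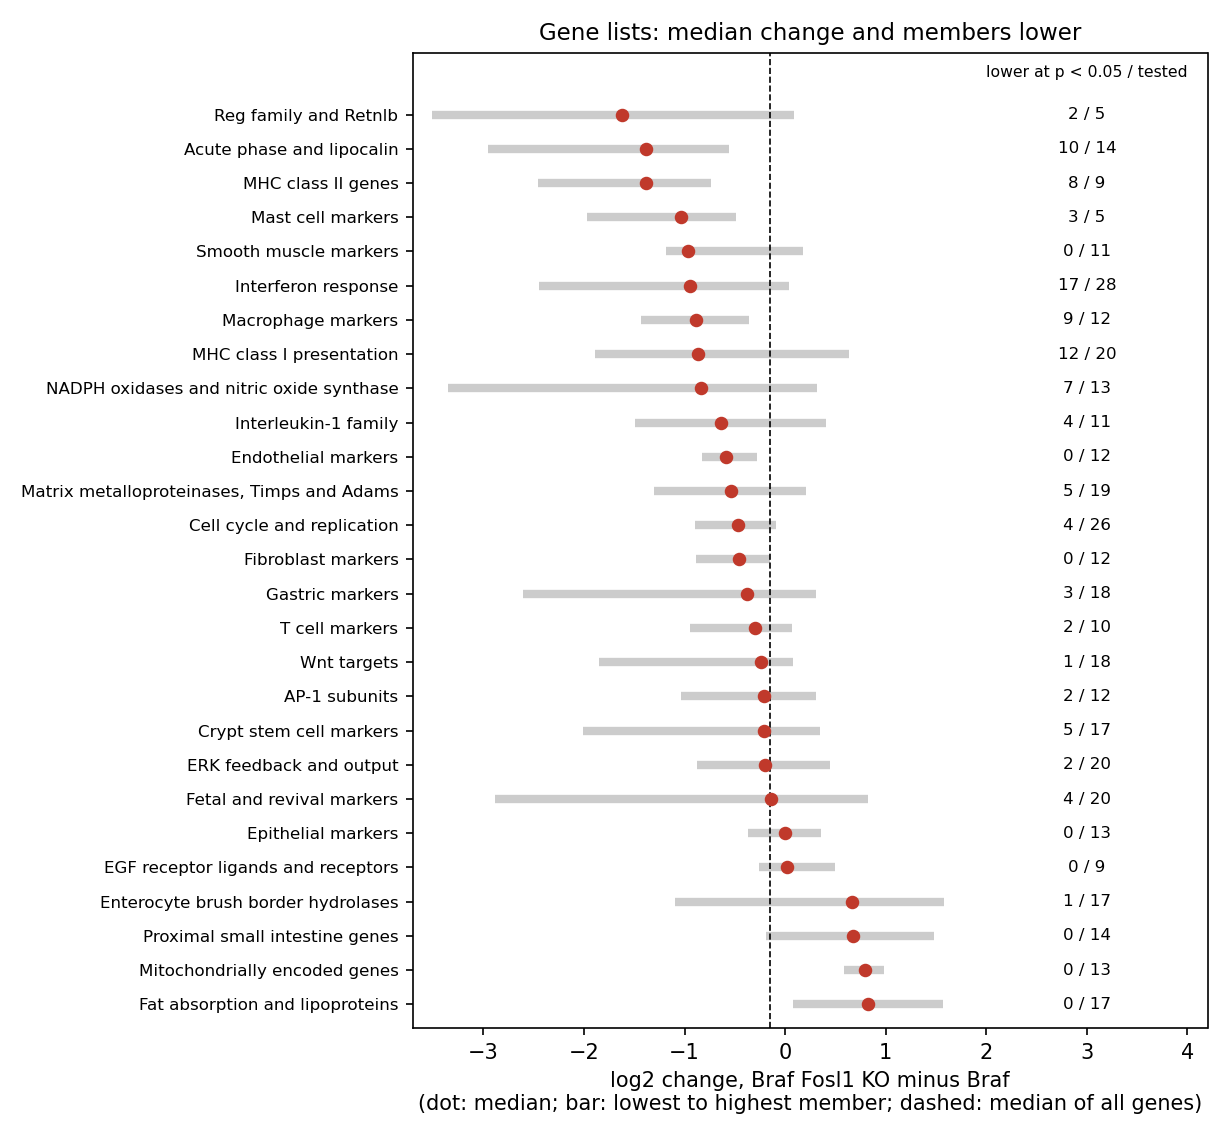
Median log2 change in knockout minus Braf adenomas for 27 gene lists (red dots), with a grey bar over the lowest to highest member, a dashed line at the median of all genes tested (-0.15), and on the right the members lower at an unadjusted p of 0.05 out of those tested. MHC class II and acute phase genes lie at -1.38, and fat absorption genes at 0.83.

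The adenoma programmes defined in other mice were next read in these libraries. The second deposited table holds 9 libraries from other mice, 3 Braf adenomas, 3 adenomas of mice with a doxycycline-induced Fosl1 transgene and 3 control tissues. There, 2758 of 15173 genes (18.2%) were at least 2-fold higher in Braf adenomas than in control tissue at an adjusted p of 0.05 in limma, and 4410 (29.1%) in Fosl1 transgene adenomas. Of the Braf adenoma genes, 2698 were tested here, with a median log2 change of -0.23, and 14.01% were lower in knockout adenomas at an unadjusted p of 0.05. Of the transgene adenoma genes, 3898 were tested, with a median of -0.28 and 16.4% lower. Among the 2271 genes raised in both, 15.5% were lower, with a median of -0.26, and among the 427 raised in Braf adenomas alone, 6.32% were lower, with a median of -0.10. Among the 1627 raised in transgene adenomas alone, 17.8% were lower, with a median of -0.30. The fall thus extended to genes that missed the cut for Braf adenomas in the other mice. Missing that cut does not show that a gene is not raised in Braf adenomas. The median level of those 1627 genes was 5.49 nCPM in knockout adenomas and 7.17 nCPM in Braf adenomas, against 3.39 nCPM in control tissue. Over all genes tested the share was 9.22% and the median -0.15. Genes at least 2-fold lower than control tissue in both adenoma types of the other mice had a median of 0.13 over 1050 tested. Of these, 2.67% were lower and 2.29% higher at an unadjusted p of 0.05. Among the 427 genes raised in Braf adenomas alone, 3.98% were higher at that p. Over all genes tested, 1.11% were higher. The median level of the 2698 Braf adenoma genes was 20.6 nCPM in knockout adenomas and 24.9 nCPM in Braf adenomas, against 3.99 nCPM in control tissue.

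The authors' deposited table lists 210 gene names under a heading that compares Braf with knockout adenomas at a factor of 2. It gives no values, and since it was chosen on these libraries it is no independent evidence. Of the 171 names tested here, 158 had a lower mean in knockout adenomas and 13 a higher one, the median log2 change was -1.13, and 142 were at an unadjusted p of 0.05, with 1, Gm8116, past the adjusted threshold. Gstp-ps, Angptl2, Slc28a3, Zbed3, Cd74, Ciita, Ltf, Wfdc18 and Duox2 are on the authors' deposited table, and Gstp2 and Chka, which were higher, are not; nor are Sting1, H2-Aa, H2-Ab1, Lcn2, Gbp2, Zbp1, Nos2, Nox1, Adam8, Cldn2 and Ccdc85b, which lay lower.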

How the data were processed

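RNA of adenomas and of control epithelial tissue was sequenced on an Illumina NovaSeq, per the labels' protocols. Tools named in the submitters' processing notes are fastp, STAR and limma, with build GRCm38; how reads were counted is not given in the sources used here. The deposited knockout table holds a normalised signal per gene, in which every library sums to about the same total, so it is not raw counts. Each value was multiplied by 0.158533 to give nCPM. Libraries 2 and 3 of the knockout group hold small fractions in place of zeros, as do all control libraries. The Braf libraries and the other knockout libraries hold exact zeros. The cause of this difference is not given in the sources used here. The second deposited table holds CPM by the authors, and its whole reads were recovered within 0.02 of a read; it served to define the adenoma programmes, and its 12 other columns were not used.

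Genes with at least 1 nCPM in 5 of the 11 libraries were tested with limma 3.58.1 (R 4.3.3; trend, robust) on log2(nCPM + 1), with Benjamini-Hochberg adjustment at 0.05. An edgeR 4.0.16 list of the programmes was made as an alternative. The scripts were tested on simulated data. The members and lists were chosen with earlier results of these data known. By rule, named genes are those past the threshold with 5 nCPM and no overlap, Braf, and up to 4 members of a list with the smallest adjusted p; Gm8116, the Gstp relatives, the neighbours of Fosl1, the 10 next smallest p, Carnmt1 and other list members were chosen after their values were seen. Alternatives covered scaling, pseudocount, filter, covariates and left-out libraries. Depths were estimated from the step of the values.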

Additional observations from a re-analysis of the deposited data

Results flagged for a closer look

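Within groups of 5 or 6 libraries, 21 of 154 gene-by-group sets had 1 library far from the others by Dixon's criterion. Its rate of about 1 in 20 by chance holds for independent values with a normal spread. The nCPM values were not logged here, and many of the genes were chosen after their values were seen. The 21 flags are therefore a description and cannot be weighed against that rate. Of these, 8 concerned Braf library 8, which was the highest Braf library for Gbp2 (92.4 nCPM), Zbp1 (92.1), Irgm1 (121), Erap1 (77.2), Ltf (101), Nox1 (46.2), Adam8 (19.4) and Braf (33.5). Knockout library 3 was the highest of its group for Zbed3 (5.66 nCPM), H2-Eb1 (26.8), Etv5 (77.0), Gkn3 (875) and Muc6 (629). Braf library 7 was the lowest Braf library for Gstp1 (148 nCPM) and the highest for Lcn2 (18.6) and Fabp2 (3915). Knockout library 7 was the highest of its group for Zbp1 (10.5 nCPM) and Nos2 (6.86). Braf library 5 was the highest for Ccdc85b (56.6 nCPM), Braf library 6 for Muc6 (2950.2), and knockout library 2 was the lowest of its group for Mpeg1 (1.59 nCPM). The part of any 1 library in the group differences was not tested beyond leaving it out.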

How the results depend on the processing

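The log2 change of Gstp2 passed as higher under all alternatives run, with an adjusted p in limma of up to 0.04996 (libraries without Xist RNA). Counts past the threshold were 1 higher and 1 lower with pseudocounts of 0.25 and 5, no filter, TMM and median-ratio factors, plain moderation, a sex term, rescaling without mitochondrial genes and without knockout libraries 2 and 3. They were 1 and 0 with a filter at 5 nCPM, 7 and 55 in a fit of 3 groups with controls, 3 and 5 with array weights, 2 and 1 without knockout libraries 1 and 2, and 1 and 0 among libraries without Xist RNA. As single libraries were left out, higher genes numbered 1 to 3 and lower genes 0 to 3, with 0 without Braf library 6 or 8. The sex term, the libraries without Xist RNA, the sets without knockout libraries 2 and 3 and the mitochondrial rescaling were chosen after seeing the data. With a replicate block, 2 genes were higher and 16 lower; same-numbered libraries correlated at 0.0243, 0.141 and 0.375, so the numbers were not taken to pair the mice.

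Signs of log2 changes near 0 turned. The log2 change of Junb was 0.079 with TMM factors, 0.084 with median-ratio factors, 0.044 with array weights, 0.16 under the block, 0.099 without knockout libraries 1 and 2, 0.015 among libraries without Xist RNA, 0.039 without knockout libraries 2 and 3, and -0.23 to 0.018 with single libraries left out. The log2 change of Braf was 0.0051 with TMM factors, 0.011 with median-ratio factors, 0.020 with array weights, 0.091 under the block and 0.098 among libraries without Xist RNA. The log2 change of Fos was 0.065 under the block, 0.13 without knockout libraries 1 and 2, 0.0063 with a sex term and 0.082 among libraries without Xist RNA. The log2 change of Carnmt1 was 0.00088 with array weights, 0.24 under the block, 0.0059 among libraries without Xist RNA and 0.033 without knockout libraries 2 and 3, and the log2 change of Dusp4 was 0.20 under the block. The log2 change of Fosl2 was -0.024 without knockout libraries 2 and 3 and -0.10 to 0.15 with single libraries left out, and the log2 change of Gstp3 was -0.047 to 0.35. The causes were not tested. Depth limits genes near 1 nCPM, such as Gm8116, which was not tested when the filter was 5 nCPM.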

Other observations

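The library that the labels place in no single group held 5.10 nCPM of Gstp2, inside the Braf range. Its 3.17 nCPM of Gm8116 lay between the groups, nearer to the Braf adenomas, and its 178 nCPM of Cd74 inside the Braf range. It held 4.89 nCPM of Angptl2, 7.90 nCPM of Sting1 and 1.85 nCPM of Lcn2, each inside the knockout range. Timp2 (6.00 nCPM) and Mcpt1 (49.0 nCPM) also lay inside the knockout range. Inside the Braf range lay, among others, Chka (58.3 nCPM), H2-Aa (72.8), H2-Ab1 (102), Gbp2 (16.6), Ltf (39.6), Adam8 (12.1) and Cldn2 (374). Of the named genes whose groups did not overlap, more thus lay inside the Braf range than inside the knockout range. The genes did not all point to 1 group, and its group was not tested.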
